A study of Mus musculus with 12 samples.

Results

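A set of 10 genes was examined here: the effector cytokine genes Ifng, Tnf, Il2, Lta, Ltb, Csf2, Lif, Il3 and Il10, and Fasl, which encodes the death ligand of the Fas receptor. They were taken by symbol, and each of the 10 matched 1 of the 55487 gene identifiers in both count tables. RNA was sequenced from OT-1 CD8+ T cells, which carry a transgenic T cell receptor for an ovalbumin peptide. The Female and Male groups (3 samples each) held spleen cells of either sex, stimulated with anti-CD3/CD28 beads over 3 days, and all cultures of the study contained mouse recombinant IL2. Libraries were stranded, from total RNA depleted of ribosomal RNA. The WT and KD groups (3 samples each) came from another batch of male cells that were electroporated and then grown for 3 days. KD cells received Cas9 together with a guide RNA for Kdm5d, a Y-linked histone demethylase gene. WT cells received guide RNA without Cas9, so Cas9 itself and the loss of Kdm5d cannot be told apart in any KD against WT difference. The number of mice was not given, and p-values then measure only the spread between these samples, which may be technical.

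Activated CD8 T cells kill target cells and also secrete cytokines. Interferon gamma (Ifng) activates macrophages and antigen presentation, and tumour necrosis factor (Tnf) and lymphotoxin alpha (Lta) signal through TNF receptors. Lymphotoxin beta (Ltb) anchors lymphotoxin alpha at the cell surface for signalling to the lymphotoxin beta receptor, and Fas ligand triggers caspases in cells that carry Fas. Il2 and Csf2 encode growth factors of T cells and of myeloid cells, Il3 a growth factor of blood progenitors, Lif a cytokine of the interleukin 6 family and Il10 an inhibitory cytokine. In T cells these genes are known to be switched on through NFAT, AP-1 and NF-kB factors, and many of their mRNAs are known to be short-lived because of AU-rich elements in the 3′ UTR.

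On GRCm38 with GENCODE M21, Ifng lies on chromosome 10 (118441046 to 118445892), Il2 on chromosome 3 (37120523 to 37125959), and Il10 (131019845 to 131024974) and Fasl (161780689 to 161788495) on chromosome 1. Lif (4257557 to 4272514) and the neighbours Csf2 (54247271 to 54249667) and Il3 (54265303 to 54267277) lie on chromosome 11, and Tnf, Lta and Ltb side by side on chromosome 17. All are protein-coding, with 3 to 5 exons. Promoters are shown for the 3 neighbours Tnf, Lta and Ltb, which did not all change in the same direction, and for Lif and Fasl, the members with the largest change in Male against Female and in KD against WT. Each is the RefSeq window on GRCm38.p6, cut to the bases that lie before both the RefSeq and the GENCODE start of the gene. Capitals mark matches to the NFAT core GGAAA, AP-1 TGANTCA, NF-kB GGGNNTTTC and CK-1 GAGNTTCCA on either strand, and to the TATA box TATAAA on the strand shown. Overlapping matches were counted separately.

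Tnf, chr17:35202008-35202257, minus strand: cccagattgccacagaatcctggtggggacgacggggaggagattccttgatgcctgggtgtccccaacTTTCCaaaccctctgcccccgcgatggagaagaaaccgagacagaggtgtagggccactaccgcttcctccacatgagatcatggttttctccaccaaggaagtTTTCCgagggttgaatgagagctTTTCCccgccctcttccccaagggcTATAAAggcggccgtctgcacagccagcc
Lta, chr17:35205352-35205601, minus strand: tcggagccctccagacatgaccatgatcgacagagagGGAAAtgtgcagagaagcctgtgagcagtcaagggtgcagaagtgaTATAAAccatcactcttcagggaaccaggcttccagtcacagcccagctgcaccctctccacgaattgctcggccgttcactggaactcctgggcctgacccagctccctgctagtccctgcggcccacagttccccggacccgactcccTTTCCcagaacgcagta
Ltb, chr17:35194257-35194438, plus strand: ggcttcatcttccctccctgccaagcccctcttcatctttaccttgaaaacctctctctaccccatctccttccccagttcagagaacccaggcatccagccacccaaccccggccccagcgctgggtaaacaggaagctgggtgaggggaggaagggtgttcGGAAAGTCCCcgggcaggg
Lif, chr11:4257318-4257556, plus strand: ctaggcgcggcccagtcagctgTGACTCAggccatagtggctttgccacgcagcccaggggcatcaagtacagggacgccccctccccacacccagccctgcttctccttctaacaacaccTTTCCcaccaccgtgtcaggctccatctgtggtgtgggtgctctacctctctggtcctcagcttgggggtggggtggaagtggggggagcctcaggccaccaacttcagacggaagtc
Fasl, chr1:161788496-161788745, minus strand: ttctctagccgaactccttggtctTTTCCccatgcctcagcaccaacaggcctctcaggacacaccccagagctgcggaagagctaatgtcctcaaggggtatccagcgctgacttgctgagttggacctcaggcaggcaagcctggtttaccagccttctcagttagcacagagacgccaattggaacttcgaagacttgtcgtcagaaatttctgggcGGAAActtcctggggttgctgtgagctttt

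Of the members, 9 had a RefSeq promoter entry, with Il10 named only. The NFAT core was found in the 250 bases before the start in 9 of these 9, against 55.6% of 27025 genes with such a window. A TATA box letter match was found in 4 of 9 (Ifng, Tnf, Il2 and Lta), against 8.12% of all windows. In Tnf it lay at positions -29 to -24 from the RefSeq start and in Lta at -167 to -162. The NF-kB letters occurred only in Ltb among the 9 (3.79% of all windows), with 1 of its 2 matches, at -86 to -78, in the stretch shown and overlapping the NFAT core. The AP-1 letters occurred only in Lif (6.87% of all windows) and the CK-1 letters only in Il3 (1.2%). For Csf2 the RefSeq start lay 232 bases before the GENCODE start, so its window does not hold the sequence next to the GENCODE start. These are matches of letters in short windows, not sites of binding.

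Copies of ATTTA, the core of AU-rich elements, were counted in the 3′ UTRs. The 30-base stretches richest in ATTTA, with ATTTA in capitals, are shown for some members with many copies (Csf2, Tnf, Il2 and Ifng) and for Ltb, which had none. Those of Lif, with 7 copies in its 3′ UTR, and Il10, with 6, are not shown.

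Csf2: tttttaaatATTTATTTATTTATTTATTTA
Tnf: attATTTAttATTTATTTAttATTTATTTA
Il2: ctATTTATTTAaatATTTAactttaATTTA
Ifng: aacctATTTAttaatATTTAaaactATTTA
Ltb: cagccatctgtattcattcctggaggatcg

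The 3′ UTR of Csf2 held 9 copies of ATTTA in 317 bases (28.39 per kilobase) and that of Tnf 8 in 764 bases (10.47 per kilobase). The density in Il2, Il3, Ifng and Il10 was between 8.5 and 12.05 per kilobase and that in Lta was 5.24. These 7 genes were above 4.49 per kilobase, the 90th percentile of 20551 genes with a 3′ UTR of at least 50 bases. For Il3 the density rests on 1 copy in 101 bases. Lif, with a long 3′ UTR of 3180 bases, had 2.2 per kilobase, Fasl had 1.13 and Ltb 0, and the median over genes was 1.27. The longer motif TTATTTA was present in 7 members, against 25.3% of genes, and was not found in Ltb, Il3 and Fasl.

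Total counts per sample were between 78748647 and 110803318. Kdm5d, checked first, was at 50.9 CPM ± 2.22 (SD, n = 3) in WT and 22 CPM ± 0.763 (SD, n = 3) in KD, where CPM is counts per 1000000 counts of a library after normalization. Its log2 fold change was -1.21 (SE 0.0455, edgeR adjusted p 3.13e-08), and the Female libraries held 0 to 2 of its counts. The 7 listed T cell markers, which include Cd8a and Cd8b1, were all present, summing to between 2590 and 3880 CPM. Markers of B cells (5 genes, 3.81 to 6.49 CPM) and of macrophages and dendritic cells (6 genes, 0.5 to 4.63 CPM) were low, with Ms4a1 and Siglech at 0 in the 12 libraries. Markers of NK cells (2 genes) were between 0.165 and 1.6 CPM and those of mast cells and basophils (5 genes) between 0.0428 and 0.46 CPM, with Mcpt4 at 0 in the 12 libraries. The red cell markers were at 0 in the 12 libraries. Itgax, of the macrophage and dendritic cell list, made up most of its sum in WT and was at 3.57 CPM there and 1.19 in KD. Activated CD8 T cells can express it too.

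Per kilobase of transcript, the members fell into a well expressed set and a scarce set. Ltb had the highest level in each group, with 273 CPM per kilobase in Female against 199.6 in Male, then 147 in WT and 183 in KD, above at least 97.9% of tested genes. Lta was next in Female, Male and WT, from 49.2 CPM per kilobase in Female to 89.0 in WT and more in Male. Lif was the fifth in Female, at 5.08 CPM per kilobase, and stood at 43.0 in Male, 48.6 in WT and 66.3 in KD, where it was next after Ltb. Lif and Tnf did not differ beyond their spread in Male (43.0 ± 0.178 and 41.1 ± 2.04 CPM per kilobase, SD, n = 3). Fasl was between 12 and 35.4 CPM per kilobase in the 4 groups. Ifng and Il10 were scarce, at 0.331 and 0.731 CPM per kilobase in Female and at most 5.42 and 4.87 elsewhere. Their ranges overlapped in WT, and those of Ifng and Csf2 overlapped in Female. Csf2 had group means of at most 0.924 CPM per kilobase, above 18.4% to 33.1% of tested genes.

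**Figure D1:**
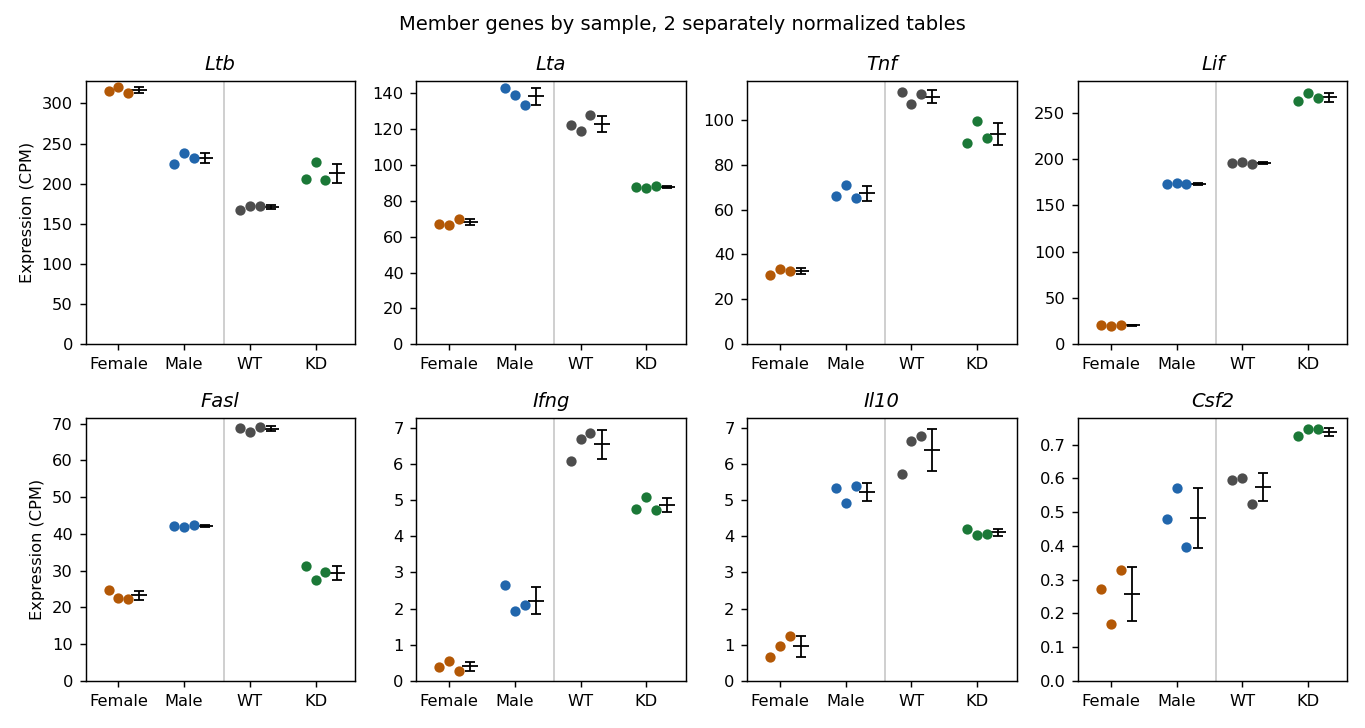
Expression of the 8 tested members in CPM (y axis, linear, from 0) in each of the 3 samples of Female, Male, WT and KD. Points are samples, and the bar beside them is the mean with its SD. The grey line separates the 2 tables, which were normalized separately. Fasl, Tnf, Lta, Ifng and Il10 were higher in Male than in Female and lower in KD than in WT, Ltb moved the other way in each table, and Lif was higher in Male and higher in KD.

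Male cells were compared with Female cells across all genes. Of the 10 members, 8 passed the low-count filter. Lif, Ifng, Il10, Tnf, Lta and Fasl were higher in Male, Ltb was lower, and Csf2 was not past the threshold (edgeR quasi-likelihood test, Benjamini-Hochberg adjusted p under 0.05). That is 6 higher and 1 lower, where 23.5% of 20208 tested genes were called higher and 26.3% lower in Male. The samples of the groups did not overlap in 8 of the 8 tested members, against 58.3% of tested genes. Their median log2 fold change was 1.04, against 0.0106 for all tested genes. In bulk RNA a larger share of producing cells and more RNA per cell cannot be told apart.

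Among the secreted cytokines, Lif was measured at 20.8, 19.8 and 20.7 CPM in the Female samples and 173, 174 and 173 CPM in the Male samples. The groups lay far apart, with a coefficient of variation of 2.74% in Female and 0.414% in Male. The log2 fold change was 3.08 (SE 0.028, edgeR adjusted p 1.59e-12), an 8.48-fold difference that ranked 3 by p among the tested genes. Ifng was at 0.378, 0.542 and 0.278 CPM in Female and 2.65, 1.92 and 2.09 CPM in Male. These values rest on 27 to 51 counts per Female library and 178 to 248 per Male library, and the groups did not overlap. Ifng had an edgeR log2 fold change of 2.47 (SE 0.26, adjusted p 1.9e-05). Of the 31-base subsequences of its transcripts, 22.6% also occur in other genes, and Gm49751, a transcript of uncertain type, overlaps it on the same strand, so the counting could have split reads. Gm49751 averaged 0.222 CPM in Female against 0.593 in Male, and the sum of the 2 gave a log2 fold change of 2.17. The 2 NK cell markers Ncr1 and Klrb1c, of a cell type that also makes interferon gamma and Fas ligand, summed to 0.165 to 0.457 CPM in Female and 0.486 to 0.531 in Male. Klrb1c averaged 0.299 CPM in Female against 0.4995 in Male and was not called (edgeR adjusted p 0.116). Ncr1 averaged 0.059 CPM in Female against 0.0108 in Male, on at most 11 counts per library. The part of NK cells in the Ifng and Fasl differences was not tested.

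Il10, the inhibitory member, was at 0.673, 0.957 and 1.25 CPM in Female and 5.35, 4.93 and 5.39 CPM in Male. The groups were again separate, and the log2 fold change was 2.44 (SE 0.199, edgeR adjusted p 2.61e-06). The regulatory T cell marker Foxp3 averaged 2.82 CPM in Female against 4.38 in Male, while Cd4 was at 0.182 CPM in Female and at 0 in Male. The summed level of these 2 markers was between 2.23 and 3.62 CPM in Female and between 3.96 and 5.21 in Male. Their part in the Il10 difference was not tested. Csf2, the gene of granulocyte-macrophage colony-stimulating factor, was at 0.271, 0.17 and 0.329 CPM in Female and 0.481, 0.573 and 0.396 CPM in Male. With 16 to 53 counts per library its log2 fold change of 0.91 (SE 0.344) just missed the threshold (edgeR adjusted p 0.0507). It passed in 5 alternative fits, among them limma-voom (adjusted p 0.0476), upper-quartile factors (adjusted p 0.0497) and the fit without the third Female replicate (adjusted p 0.0417).

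The TNF-family ligands were split. Tnf was at 30.99, 33.7 and 32.7 CPM in Female and 65.9, 71.2 and 65.0 CPM in Male, and Lta at 67.3, 66.7 and 69.9 CPM against 142.7, 138.9 and 133.3 CPM. Both were higher in Male, with log2 fold changes of 1.05 (SE 0.0444) and 1.02 (SE 0.0315) and edgeR adjusted p of 2.07e-08 and 2.21e-09. Ltb, at 315.9, 320.2 and 313 CPM in Female and 225, 238 and 232 CPM in Male, had the opposite direction, with an edgeR log2 fold change of -0.45 (SE 0.0241, adjusted p 1.13e-07). Fasl was at 24.7, 22.7 and 22.3 CPM in Female and 42.2, 41.9 and 42.4 CPM in Male. Its replicates were close within each group, and the log2 fold change was 0.86 (SE 0.0443, edgeR adjusted p 8.52e-08).

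Il2 and Il3 did not pass the filter in either table. Il2 was listed at 53 and 51 counts in Female samples 2 and 3 and at 82 counts in WT sample 2, and at 0 in the other 9 libraries. Of the 31-base subsequences of its transcripts, 15% also occur in other genes. No fold is given, since Male and KD were at 0. Il3 was listed at 0 in the 12 libraries, where 3 counts would be 0.0271 to 0.0381 CPM. An exact 0 in such tables may also be a failed estimate.

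KD cells were compared with WT cells, to ask which of these genes differ when Kdm5d is reduced in male cells. Fasl, Il10, Lta, Ifng and Tnf were lower in KD, Lif and Ltb were higher, and Csf2 was not past the threshold. Of the 8 tested members, 5 were lower and 2 higher, where 18.4% of 20413 tested genes were called lower and 16.8% higher in KD. The groups did not overlap in 8 of 8 tested members, against 46.8% of tested genes. The median log2 fold change of the members was -0.33, against 0.0124 for all tested genes, and the changes other than that of Fasl were below 1 log2 unit.

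Fasl was at 68.8, 67.8 and 69.0 CPM in the WT samples and 31.2, 27.5 and 29.5 CPM in the KD samples. The KD values were less than the lowest WT value by a wide margin, with an edgeR log2 fold change of -1.22 (SE 0.046, adjusted p 3.13e-08), so that WT was 2.33-fold higher. The size of this change exceeded that of 96.2% of tested genes. The 2 NK cell markers summed to 1.5 to 1.6 CPM in WT and 0.59 to 1.24 in KD. Klrb1c averaged 1.41 CPM in WT and 0.772 in KD, while Ncr1 averaged 0.131 and 0.156. The 6 macrophage and dendritic cell markers summed to 3.52 to 4.63 CPM in WT and 1.36 to 2.04 in KD. Of these, Itgax averaged 3.57 and 1.19 CPM, Csf1r 0.405 and 0.415, and Cd14 0.0206 and 0.137. The rest of that list held at most 12 counts per WT or KD library. The part of these cell types in the Fasl, Ifng and Tnf differences was not tested. Among the TNF-family cytokines, Lta was at 122.4, 119.0 and 127.9 CPM in WT and 87.7, 87.3 and 88.3 CPM in KD, and Tnf at 112.2, 107.0 and 111.6 CPM against 89.6, 99.3 and 92.0 CPM. The KD samples of both genes were below the WT samples. Lta had an edgeR log2 fold change of -0.49 (SE 0.0305, adjusted p 1.01e-06) and Tnf one of -0.24 (SE 0.0395, edgeR adjusted p 0.000967). Ltb was at 167.6, 171.8 and 172.2 CPM in WT and 206.1, 226.9 and 205.1 CPM in KD, an edgeR log2 fold change of 0.32 (SE 0.037, adjusted p 7.9e-05).

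Of the other secreted cytokines, Lif rose from 196.2, 196.5 and 194.5 CPM in WT to 262.3, 271.8 and 266.1 CPM in KD. The groups were well separated, with an edgeR log2 fold change of 0.45 (SE 0.0208, adjusted p 1.34e-07). Ifng was at 6.1, 6.68 and 6.86 CPM in WT and 4.76, 5.09 and 4.73 CPM in KD. The difference was modest, with an edgeR log2 fold change of -0.43 (SE 0.0896, adjusted p 0.00388), and in a fit over all 12 samples it was not past the threshold (-0.43, adjusted p 0.0556). Gm49751 was also lower in KD, at 0.705 against 1.3 CPM, and the sum with Ifng gave -0.49. Il10 was at 5.71, 6.64 and 6.79 CPM in WT and 4.21, 4.03 and 4.07 CPM in KD, with an edgeR log2 fold change of -0.64 (SE 0.099, adjusted p 0.000607). Foxp3 was at 2.65 CPM in WT and 1.46 in KD, and its summed level with Cd4 was 2.39 to 2.94 CPM in WT and 1.24 to 1.77 in KD. Their part in the Il10 difference was not tested. Csf2 was at 0.594, 0.602 and 0.525 CPM in WT and 0.725, 0.746 and 0.746 CPM in KD. Its groups did not overlap but rested on 51 to 81 counts per library, with an edgeR log2 fold change of 0.36 (SE 0.21, adjusted p 0.222).

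**Figure D2:**
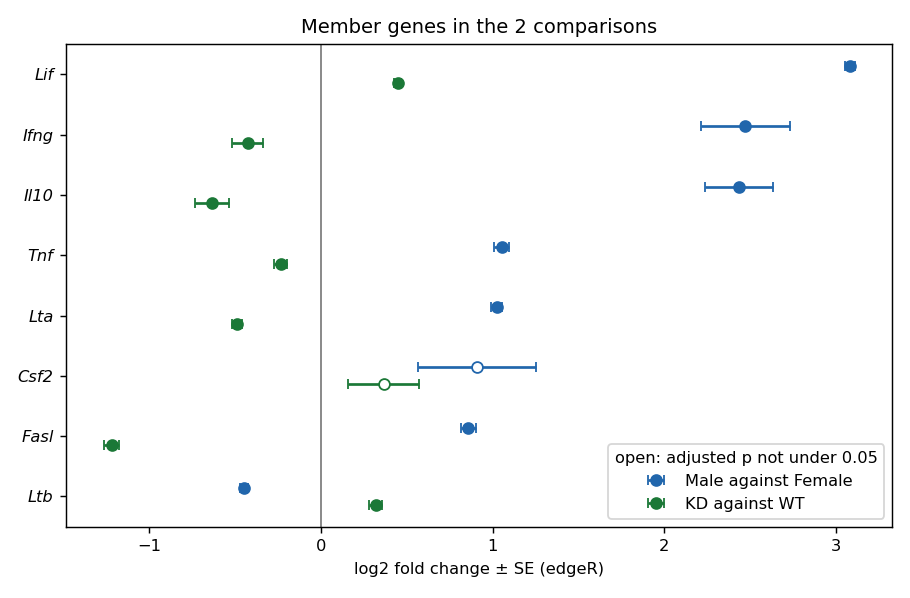
The log2 fold change (x axis) of the 8 tested members with its standard error, in Male against Female (blue) and KD against WT (green). Open symbols did not pass an edgeR adjusted p of 0.05. Fasl, Tnf, Lta, Ifng and Il10 lie on opposite sides of 0 in the 2 comparisons, as does Ltb in the reverse order, while Lif lies above 0 in both.

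The 2 comparisons share no samples, and their values for the members can be set side by side. For Ifng, Il10, Tnf, Lta and Fasl, the log2 fold changes were 2.47, 2.44, 1.05, 1.02 and 0.86 in Male against Female and -0.43, -0.64, -0.24, -0.49 and -1.22 in KD against WT. For Ltb they were -0.45 and 0.32, and for Lif 3.08 and 0.45. The reduction in KD was smaller than the excess in Male for Ifng, Il10, Tnf and Lta and larger for Fasl, though the difference between these contrasts was not tested. The male groups of the 2 tables gave these levels. Ifng was at 2.22 CPM in Male and 6.55 in WT, Tnf at 67.3 and 110.3, and Fasl at 42.1 and 68.5. Il10 was at 5.22 and 6.38 CPM, Lif at 173.3 and 195.7, and Csf2 at 0.483 and 0.574. Lta and Ltb were lower in WT, with Lta at 138.3 CPM in Male and 123.1 in WT, and Ltb at 231.6 and 170.5. Those groups differ in batch and in electroporation, and the tables were normalized separately, so no test was made.

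Tnf, Lta and Ltb lie side by side on chromosome 17 (GRCm38, GENCODE M21), with Ltb at 35194439 to 35196320 on the plus strand, and Tnf at 35199381 to 35202007 and Lta at 35203165 to 35205351 on the minus strand. Their ratios within a sample do not depend on library size. Tnf to Ltb, per kilobase, was 0.0694, 0.0745 and 0.0738 in the Female samples and 0.207, 0.212 and 0.198 in the Male samples. It was 0.474, 0.441 and 0.459 in WT and 0.308, 0.31 and 0.317 in KD. The groups of each table did not overlap in this ratio. Lta to Ltb was 0.18 ± 0.00645 in Female against 0.501 ± 0.0271 in Male, and 0.606 ± 0.0218 in WT and 0.347 ± 0.021 in KD (SD, n = 3). For both ratios the exact two-sided permutation p was 0.1 in each table, the smallest that 3 against 3 samples allow. Tnf to Lta was 0.403 ± 0.0203 in Female and 0.411 ± 0.0212 in Male (exact permutation p 0.6, n = 3), and 0.756 ± 0.0187 in WT and 0.901 ± 0.0524 in KD (exact permutation p 0.1, n = 3). These ratios were chosen after the values had been seen, and 8 such comparisons were made, 4 ratios in each table, with none able to pass 0.05 before or after adjustment. The last of them, Ifng to Il10, was 0.488 ± 0.213 in Female and 0.461 ± 0.0669 in Male (exact permutation p 0.8, n = 3), and 1.11 ± 0.0369 in WT and 1.29 ± 0.0746 in KD (exact permutation p 0.1, n = 3).

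**Figure D3:**
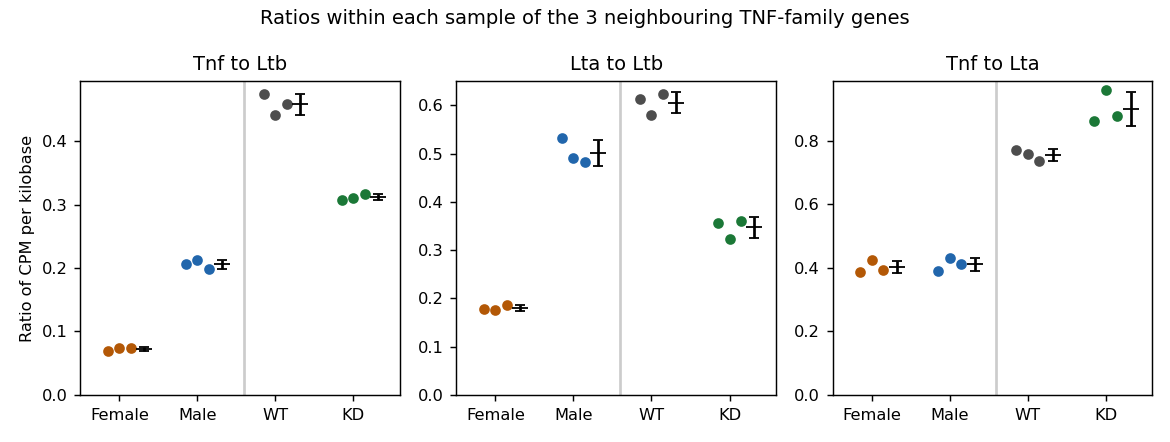
Ratios of CPM per kilobase (y axis, from 0) of Tnf to Ltb, Lta to Ltb and Tnf to Lta in each sample. Points are samples, and bars are the mean with its SD. The first 2 ratios were higher in Male than in Female and lower in KD than in WT, and Tnf to Lta overlapped between Female and Male.

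Of the 6 other genes drawn around these 3, none was called higher in Male and lower in KD as Tnf and Lta were. Bag6 and Prrc2a had log2 fold changes of -0.15 and -0.06 in Male against Female (edgeR adjusted p 0.000148 and 0.0369) and of 0.00 and 0.00 in KD against WT (edgeR adjusted p 0.995 and 0.973). Nfkbil1, on the other side of Lta, was lower in Male (-0.80, edgeR adjusted p 6.67e-07) and lower in KD (-0.39, edgeR adjusted p 0.000439). Ddx39b was higher in both (0.15 and 0.30, edgeR adjusted p 7.86e-05 and 1.07e-06). Atp6v1g2 had -0.14 in Male, which did not pass (edgeR adjusted p 0.321), and was lower in KD (-0.56, edgeR adjusted p 0.00559). For Lst1 the values of -0.40 and -0.30 did not pass (edgeR adjusted p 0.104 and 0.247). Neighbours were taken within 50 kb of a member, after the members' values had been seen.

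**Figure D4:**
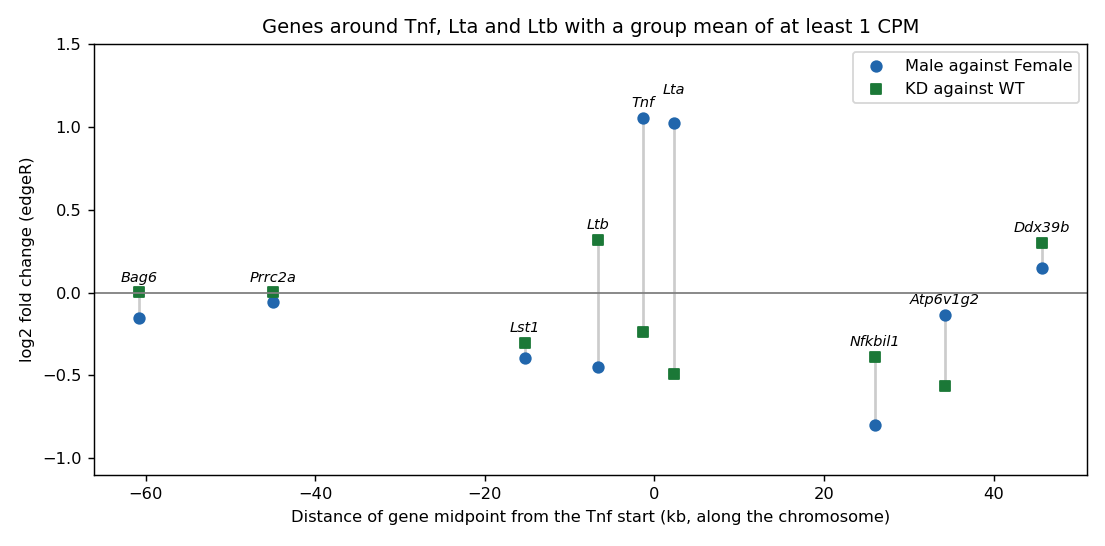
The log2 fold change (y axis) of genes around Tnf, Lta and Ltb, by distance in kb of the gene midpoint from the Tnf start (x axis), for genes with at least 1 CPM in a group. Blue circles are Male against Female and green squares KD against WT, joined by a grey line for each gene. Tnf and Lta have the largest values in Male against Female of the genes drawn.

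The receptors of these ligands were taken from a list of 17 genes. In Male against Female, 5 of 16 tested were higher and 9 lower, and in KD against WT 4 of 14 were higher and 7 lower. Over all tested genes 23.5% were called higher and 26.3% lower in Male, and 16.8% higher and 18.4% lower in KD, and the list counts that follow are to be read beside these shares, as descriptions of each list. Fas, the receptor of Fas ligand, was opposite in direction to its ligand in both tables. It averaged 16.9 CPM in Female against 8.76 in Male, an edgeR log2 fold change of -0.95 (SE 0.0652, adjusted p 7.48e-07), and 5.46 in WT and 9.54 in KD, an edgeR log2 fold change of 0.81 (SE 0.075, adjusted p 1.7e-05). Il2rb, the beta chain of the IL2 receptor, averaged 772.3 CPM in Female against 1301 in Male, and 2265 in WT and 1539 in KD, with log2 fold changes of 0.75 and -0.56 (edgeR adjusted p 2.14e-10 and 1.07e-07). Il2ra, the alpha chain, was higher in Male (0.25, edgeR adjusted p 1.66e-07), with a value of 0.04 in KD against WT that did not pass (edgeR adjusted p 0.059). For Il10 the ligand-binding chain gene Il10ra had 0.63 and -0.12, and the shared chain gene Il10rb 0.16 and -0.49, each past the threshold. Il6st, the signalling chain for LIF, had -0.68 and 0.49 (edgeR adjusted p 3.57e-08 and 7.69e-06). Lifr, the other chain, held 13 to 33 counts in Female and 0 to 6 in Male. Tnfrsf1a, a receptor of TNF and lymphotoxin alpha, was lower in Male (-0.32) and lower in KD (-0.23, edgeR adjusted p 8.49e-06 and 0.00347). Tnfrsf1b, the other TNF receptor, had -0.07 in Male, which did not pass (edgeR adjusted p 0.0516), and was lower in KD (-0.28, edgeR adjusted p 1.58e-05). Il2rg, the common gamma chain, had 0.14 in Male against Female and -0.11 in KD against WT (both called, edgeR adjusted p 0.00031 and 0.0144). The interferon gamma receptor gene Ifngr1 was lower in Male (-0.19) and lower in KD (-0.64, edgeR adjusted p 1.73e-06 and 6.1e-09). Its partner Ifngr2 was lower in Male (-0.36, edgeR adjusted p 0.000143), with a value of -0.19 in KD that did not pass (edgeR adjusted p 0.0613). The alpha chain gene for IL-3, Il3ra, was lower in Male (-0.28) and higher in KD (0.33, edgeR adjusted p 0.00251 and 0.00114). The alpha chain gene for GM-CSF, Csf2ra, had 0.01 in Male, which did not pass (edgeR adjusted p 0.965), and was higher in KD (0.63, edgeR adjusted p 0.00122). Csf2rb, the common beta chain for GM-CSF and IL-3, held 23 to 29 counts in Female and 0 to 2 in Male. The related Csf2rb2 held 11 to 27 and 0 to 2. The 5 mast cell and basophil markers summed to 0.245 to 0.46 CPM in Female and 0.0428 to 0.102 in Male. The part of those cells in the Csf2rb and Csf2rb2 differences was not tested. Ltbr, the lymphotoxin beta receptor, was at most at 55 counts in any library.

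**Figure D5:**
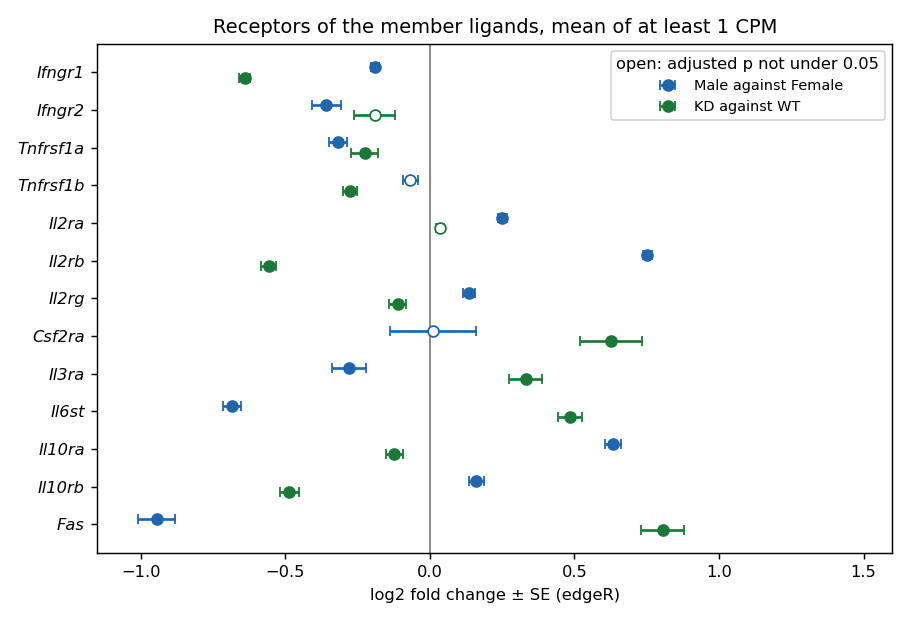
The log2 fold change (x axis) with its standard error of 13 receptor genes of the member ligands that had a mean of at least 1 CPM, in Male against Female (blue) and KD against WT (green). Open symbols did not pass an edgeR adjusted p of 0.05. Fas and Il6st were lower in Male and higher in KD, and Il2rb the reverse.

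Of 21 listed NFAT, AP-1 and NF-kB genes, 7 were higher and 10 lower in Male (all tested genes 23.5% and 26.3%), and 3 higher and 9 lower in KD (16.8% and 18.4%). In Male against Female the log2 fold changes were 0.41 for Nfatc2 and -0.52 for Nfatc3, both NFAT factors, and -1.13 for the NF-kB subunit gene Relb (edgeR adjusted p 3.43e-06, 8.74e-09 and 4.22e-09). The NF-kB inhibitor gene Nfkbia was also lower (-0.84), while Nfkbid and Nfkbiz, of the same gene family, were higher (1.03 and 0.59), each past the threshold. In KD the AP-1 genes Fosl2 and Jund were lower, at 138.1 against 246.6 CPM and 420.2 against 637 CPM, and Jun was higher (log2 fold changes -0.84, -0.60 and 0.40, edgeR adjusted p 3.83e-09, 1.66e-06 and 2.55e-06). Of 19 lineage and signal factors, 5 were higher and 11 lower in Male, and 5 higher and 8 lower in KD, beside the same shares of all tested genes. Eomes, a T-box factor of CD8 effector cells, averaged 37.3 CPM in Female against 120.1 in Male (1.69, edgeR adjusted p 3.47e-10), with a value of 0.03 in KD against WT (edgeR adjusted p 0.321). Tbx21, the gene of T-bet, had values of -0.09 in Male and -0.19 in KD (edgeR adjusted p 0.0384 and 0.00324). Runx3, a factor that maintains the CD8 lineage, was lower in Male (-0.36) and lower in KD (-0.67), and Stat4, which transmits IL-12 signals, was lower in Male (-0.35) and lower in KD (-0.66, edgeR adjusted p 7.49e-07 and 2.65e-08).

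The binding proteins of unstable mRNAs were taken as a list of 14 genes, of which 4 were higher and 8 lower in Male (all tested genes 23.5% and 26.3%), and 8 higher and 3 lower in KD (16.8% and 18.4%). Zc3h12d, of the Regnase family of RNases, averaged 87.5 CPM in Female against 26.4 in Male, an edgeR log2 fold change of -1.73 (SE 0.043, adjusted p 5.08e-10), and 17.1 in WT and 21.9 in KD (0.35, edgeR adjusted p 0.00239). Zfp36l2, of the tristetraprolin family that binds AU-rich elements, was lower in Male (-0.52) and lower in KD (-0.37, edgeR adjusted p 3.53e-08 and 3.66e-06). Elavl1, which encodes the stabilizing protein HuR, was higher in both (0.32 and 0.17, edgeR adjusted p 1.47e-06 and 0.000423). Zfp36, the gene of tristetraprolin itself, had values of -0.08 and -0.07 that did not pass (edgeR adjusted p 0.247 and 0.401).

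Other cytokines and TNF-family ligands of T cells formed 2 further lists. Of 19 other secreted cytokines 10 were tested in each table, with 5 higher and 2 lower in Male (all tested genes 23.5% and 26.3%) and 3 higher and 2 lower in KD (16.8% and 18.4%). Osm, the gene of oncostatin M and the neighbour of Lif on chromosome 11, averaged 26.2 CPM in Female against 50.7 in Male (0.95, SE 0.0413, edgeR adjusted p 2.52e-08) and 76.7 in WT and 77.2 in KD (0.01, edgeR adjusted p 0.855). Tgfb3, the gene of a transforming growth factor beta, was higher in Male, at 6.95 against 2.91 CPM (1.25, edgeR adjusted p 2.22e-06), and lower in KD, at 8.85 against 27.4 CPM (log2 fold change -1.63, edgeR adjusted p 3.7e-09), and Il24 was higher there, at 4.46 against 1.12 CPM (1.99, edgeR adjusted p 7.09e-06). Of 13 other TNF-family ligands, 8 were tested in Male against Female, with 4 higher and the other 4 not called. Among 10 tested in KD against WT, 3 were higher and 2 lower. Tnfsf10, the gene of the death ligand TRAIL, went the same way as Fasl, with log2 fold changes of 0.66 and -0.41 (edgeR adjusted p 1.95e-07 and 1.81e-05).

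Genes of signalling downstream of these ligands and genes of ligand shedding were examined last. Of 16 Fas and TNF receptor signalling genes, 6 were higher and 6 lower in Male (all tested genes 23.5% and 26.3%), and 3 higher and 8 lower in KD (16.8% and 18.4%). Casp8, the initiator caspase of Fas, and Cflar, its inhibitor, were both higher in Male (0.66 and 0.35) and both lower in KD (-0.32 and -0.31), each past the threshold. Traf1, an adaptor of TNF receptors, was lower in Male and in KD (-0.71 and -0.38), and Tnfaip3, an NF-kB feedback inhibitor, was lower in Male and higher in KD (-0.92 and 0.40), each past the threshold. Of 10 proteases and inhibitors, 9 and 8 were tested, with 4 higher and 2 lower in Male, and 1 higher and 4 lower in KD, beside the same shares. Adam17, which sheds TNF, had log2 fold changes of 0.26 and -0.24, and Adam10, which sheds Fas ligand, of -0.01 and -0.14 (edgeR adjusted p 2.7e-05, 0.00015, 0.676 and 0.00116). Timp2, a protease inhibitor gene, averaged 8.7 CPM in Female against 2.5 in Male (-1.80, edgeR adjusted p 7.05e-07) and 1.92 in WT and 3.41 in KD (0.82, edgeR adjusted p 0.00111).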

How the data were processed

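RNA was measured in 12 samples, 3 in each of Female, Male, WT and KD, grouped by title. The authors deposited 2 tables of whole-number counts per gene. Per the submitters' processing notes, bcl2fastq 2.20.0, HISAT2, StringTie and DESeq2 were used, with build mm10. The annotation and the use of strand are not given in the sources used here. Among identifiers with a value in only 1 of the 12 samples, 714 held 3 counts, 667 held 2 and 463 held 1. Counts may therefore overstate independent reads, and floors of 3 counts cover counting error only. Of 55487 identifiers, 55141 matched a GENCODE M21 symbol.

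Genes that passed filterByExpr entered separate fits for the 2 comparisons, 6 samples in each, with edgeR 4.0.16 in R 4.3.3 (TMM, quasi-likelihood test, Benjamini-Hochberg adjustment, threshold 0.05). The standard error of a log2 fold change was its size over the root of the F statistic. Levels per kilobase used the longest coding transcript. Fits were tested on simulated data, where the share of false calls came out above the adjusted threshold. Alternatives included DESeq2 1.42.0 and limma 3.58.1 (voom). Dividing counts by 3 and summing Ifng with Gm49751 were chosen after seeing the data. Members and lists were chosen with earlier results of these data known. The rule for named genes allowed the members, their receptors, Kdm5d, and up to 3 called genes per list and direction with the smallest p and a mean log2 CPM of at least 1. Other genes (Foxp3, Cd4, Cd8a, Cd8b1, Itgax, Csf1r, Cd14, Klrb1c, Ms4a1, Siglech, Mcpt4, Ncr1, Gm49751, Tbx21, Zfp36 and Adam10) were named after their values were seen. So were Bag6, Prrc2a, Nfkbil1, Ddx39b, Atp6v1g2 and Lst1 near Tnf. Promoters came from RefSeq on GRCm38.p6 and transcripts from GENCODE M21.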

Additional observations from a re-analysis of the deposited data

How the results depend on the processing

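Under 11 alternative settings, and 12 for Ifng, and 6 fits per comparison that left out 1 replicate, no tested member changed direction. The settings that only moved the threshold of the adjusted p or the fold change reused the main fit and could not change a direction. With a minimum log2 fold change of 1, 5 members were called in Male against Female and 1, Fasl, in KD against WT. The other listed genes called there numbered 17 and 5, against 88 and 73 without the minimum, and all genes called 1471 and 808, against 10067 and 7171. Members called numbered 7 in each comparison, 7 to 8 in Male against Female without 1 replicate and 7 in KD against WT. Other listed genes called ran from 81 to 86 and from 64 to 71 without 1 replicate. All genes called ran from 9190 to 9399 and from 6073 to 6685 in those fits. With the replicate block, 7 members were called in each comparison, and 84 and 71 other listed genes, beside 9740 and 6688 of all genes. The replicate block changed no call of a member. Deviations of same-numbered samples had correlations of -0.001 to 0.018 for Male and Female and -0.04 to 0.021 for WT and KD. Pairs with different numbers gave -0.02 to 0.019 and -0.035 to 0.041. The correlations ran over all tested genes, where counting noise can mask a shared origin. They do not decide whether same-numbered samples were paired. Besides the minimum fold change, the calls that changed were those of Csf2 in Male against Female, called also with all 12 samples in 1 fit (adjusted p 0.0142) and with counts divided by 3 (adjusted p 0.0406), and of Ifng in KD against WT with all 12 samples in 1 fit (adjusted p 0.0556). The cause was not tested. Without a low-count filter Il2 was tested and called lower in Male (edgeR adjusted p 0.0448), on 2 Female libraries, and was not called in KD against WT (edgeR adjusted p 0.143). Without Female replicate 1 it passed the filter and was called (edgeR adjusted p 0.000193), as it was without any 1 Male replicate (0.0323 to 0.0342), while a fit of all 12 samples did not call it (0.0565). For Kdm5d the range was -1.21 to -1.18, or -1.25 to -1.19 when 1 replicate was left out. Csf2, Il2 and Il3 held at most 82 counts in any library, so differences in them are measured with few counts.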

Other observations

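Genes near the members on other chromosomes gave these values, with neighbours taken within 50 kb after the members' values had been seen. Suco, next to Fasl on chromosome 1, had log2 fold changes of 0.39 in Male against Female and -0.17 in KD against WT (edgeR adjusted p 4.63e-07 and 0.00116), and Mapkapk2, next to Il10, of 0.08 and -0.13 (edgeR adjusted p 0.00749 and 0.00182). Both had the direction of the adjacent member in each comparison, at a smaller size. On chromosome 11, Tbc1d10a near Lif had values of 0.07 and -0.04 (edgeR adjusted p 0.271 and 0.575), and Castor1 had 0.47 and -0.13 (edgeR adjusted p 6.63e-05 and 0.184). Acsl6, an acyl-CoA synthetase gene next to Il3, averaged 2.32 CPM in Female against 0.951 in Male, and 0.312 in WT and 1.48 in KD, with log2 fold changes of -1.29 and 2.24 (edgeR adjusted p 0.000119 and 8.35e-05), while Il3 was listed at 0 throughout.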
